A study of Homo sapiens with 4 samples.

Results

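The comparison described here is that of Panc1 cells treated with romidepsin plus tamoxifen against untreated Panc1 cells, and it uses 2 of the 4 arrays of the study. Panc1 is a human pancreatic cancer cell line. All cells were grown in RPMI1640 medium with fetal bovine serum, and the treated cells had both drugs for 24 h. Doses are not given in the sources used here. Another 2 arrays came from cells given romidepsin alone or tamoxifen alone for the same time, and their values are set beside those of the combination. Each condition has 1 array of 1 culture, so no test between conditions was possible, no p-value is given, and every fold describes these arrays only.

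The features compared were all probe sets of the array whose annotation names a single gene, which are 41091 of 54613 probe sets other than controls. They cover 19775 genes. Where a gene had several probe sets, the one that was brightest on average on the log2 scale stood for it. The unit is the MAS5 signal, the brightness of a probe set on a linear scale. Signals under 66.4, the median of all signals other than controls, were set to that floor, since such dim signals have no order. A total of 13802 genes exceeded the floor on 1 or both of the 2 arrays and are called measured, and 5973 did not. The words rise and fall are kept for differences of 2-fold or more between the 2 arrays. Where the lower array lay at the floor the fold is a lower bound and is written as at least N-fold.

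Romidepsin is a cyclic peptide that inhibits histone deacetylases, the enzymes that take acetyl groups off histone tails and other proteins. Acetylated histones are a mark of open, transcribed chromatin, and inhibitors of this class are known to arrest dividing cells and to alter the transcription of many genes in both directions. Tamoxifen is a selective estrogen receptor modulator. It is a cationic amphiphilic compound that gathers in lysosomes, and it also binds the sterol isomerase EBP and thereby interferes with the last steps of cholesterol synthesis.

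The signals of the cell line's own markers were looked at first. KRT8 and KRT18, the keratin pair of simple epithelia, gave 9154 and 25361 on the untreated array and 4153 and 11344 on the combination array. VIM, the intermediate filament of mesenchymal cells that Panc1 also makes, gave 38695 and 22486, and the duct factor SOX9 gave 6686 and 4537. KRT19 was below the floor on all 4 arrays. Of 22 markers of leukocytes, of endothelium and fibroblasts, and of acinar and islet cells with a probe set, 13 were below the floor on both arrays. Of these markers KDR, a receptor of endothelial cells, and the smooth muscle actin ACTA2 rose, from below the floor to 290.5 and from 67.4 to 183.9.

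Median signals were 59.5 on the untreated array and 73.0 on the combination array, and the 2% trimmed mean was 500.1 on both. Centring both arrays on their medians would lower the log2 fold of a gene well above the floor by 0.30, and scaling them to the hybridization spike-ins would raise it by 0.29, with other shifts for genes at or near the floor, so that differences of that size have no settled direction. Pairs of probe sets of the same gene differed in log2 fold by 0.33 at the median. The ratio of 3′ to 5′ signal of the actin control was 1.21 on the untreated array and 1.73 on the combination array, while that of the GAPDH control was 1.07 on both. Whether this has a part in any fold was not tested. ACTB itself gave 49748 and 36426, and GAPDH gave 36159 and 28528.

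The promoters of 6 genes of cell division are shown as examples of 2 short motifs whose shares differed between the mitosis and the replication lists. They were chosen because they hold the motif, as the 3 steepest falls among mitosis genes with a whole cell cycle homology region before the start and the 3 among replication genes with an E2F motif there. Other genes of these lists fell as steeply or more steeply and are not shown. Of these AURKB had a CCAAT box but no cell cycle homology region, CDCA3 had one that runs across the start, and UBE2C and MCM5 had no window. PLK1, CDC20 and ESPL1 act in mitosis. Their sequences are the 250 bases before the first listed start site, on the plus strand of GRCh38.p14 from RefSeq, at chr16:23678639-23678888, chr1:43358731-43358980 and chr12:53268049-53268298, and capitals mark the cell cycle homology region (CHR, TTTGAA or TTCGAA) and the CCAAT box, on either strand.
PLK1: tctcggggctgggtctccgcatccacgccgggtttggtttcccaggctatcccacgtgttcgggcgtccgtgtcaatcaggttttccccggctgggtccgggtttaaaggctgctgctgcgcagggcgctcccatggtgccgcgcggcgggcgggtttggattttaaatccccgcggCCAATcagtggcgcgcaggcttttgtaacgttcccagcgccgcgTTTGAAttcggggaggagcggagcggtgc
CDC20: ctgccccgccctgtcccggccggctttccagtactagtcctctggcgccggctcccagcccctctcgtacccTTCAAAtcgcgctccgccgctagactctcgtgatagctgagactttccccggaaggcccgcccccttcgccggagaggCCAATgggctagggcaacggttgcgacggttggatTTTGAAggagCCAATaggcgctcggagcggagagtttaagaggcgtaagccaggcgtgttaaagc
ESPL1: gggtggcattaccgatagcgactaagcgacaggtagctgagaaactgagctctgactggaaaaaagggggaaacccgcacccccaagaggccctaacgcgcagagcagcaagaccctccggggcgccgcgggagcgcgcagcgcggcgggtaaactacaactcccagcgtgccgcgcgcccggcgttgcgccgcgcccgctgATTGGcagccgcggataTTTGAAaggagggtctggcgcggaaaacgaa
Positions are counted back from the start site and given for the first base of a match. In PLK1 the CHR began at -29 and the CCAAT box at -73. ESPL1 had the same pair at -31 and -48, with the CCAAT box on the opposite strand. CDC20 had 2 of each, with CHR matches at -178 and -65 and CCAAT boxes at -100 and -55.

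UHRF1, TYMS and CDT1 act in DNA replication. Their windows lie on the plus strand at chr19:4909251-4909500, chr18:657403-657652 and chr16:88803539-88803788, and capitals mark only the E2F motif (TTTGGCGC, TTTCCCGC, TTTCGCGC or TTTGCCGC, on either strand).
UHRF1: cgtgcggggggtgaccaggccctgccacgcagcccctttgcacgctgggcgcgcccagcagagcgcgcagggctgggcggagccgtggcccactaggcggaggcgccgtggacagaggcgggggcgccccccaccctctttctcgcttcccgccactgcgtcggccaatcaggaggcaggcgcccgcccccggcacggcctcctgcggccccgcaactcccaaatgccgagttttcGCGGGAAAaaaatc
TYMS: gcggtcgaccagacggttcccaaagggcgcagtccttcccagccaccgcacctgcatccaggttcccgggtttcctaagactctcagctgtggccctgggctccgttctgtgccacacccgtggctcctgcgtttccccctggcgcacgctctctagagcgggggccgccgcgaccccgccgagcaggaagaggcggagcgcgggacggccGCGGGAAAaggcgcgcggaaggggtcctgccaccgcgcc
CDT1: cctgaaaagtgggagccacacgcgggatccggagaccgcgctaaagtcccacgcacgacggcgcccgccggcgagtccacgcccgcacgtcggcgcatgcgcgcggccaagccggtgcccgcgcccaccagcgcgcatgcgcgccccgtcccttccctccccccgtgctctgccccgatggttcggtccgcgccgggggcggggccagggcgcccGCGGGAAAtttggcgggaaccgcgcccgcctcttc
All 3 held the same 8 letters on the opposite strand, at -14 in UHRF1, -39 in TYMS and -35 in CDT1.

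Between the untreated and the combination array 2727 genes rose and 1984 fell, which are 19.8% and 14.4% of the genes measured. These shares, 34.1% either way, are the background against which each gene group is read. Rises were 57.9% of the called genes, a share that became 41.2% with arrays centred on their medians and 72.8% with arrays scaled to the spike-ins. The median log2 fold of all measured genes was 0.09. A total of 833 genes rose at least 4-fold and 468 fell at least 4-fold, or 6.04% and 3.39% and together 9.43%. At 16-fold or more there were 65 rises against 19 falls, and 42 of the rises came from genes that were below the floor in untreated cells. Among the 11507 genes above the floor on both arrays, 18.1% rose and 16.2% fell, together 34.3%, and 8.44% differed at least 4-fold. The excess of rises in the deposited signals was thus smaller among these genes. The floor lies between the medians of the 2 arrays, so the scaling affects how many genes cross it on each. With arrays centred on their medians falls outnumbered rises. A further probe set of the same gene was above the floor on both arrays for 1835 of the called genes, and it differed in the same direction for 1748 of them and by at least 2-fold for 1206.

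**Figure D1:**
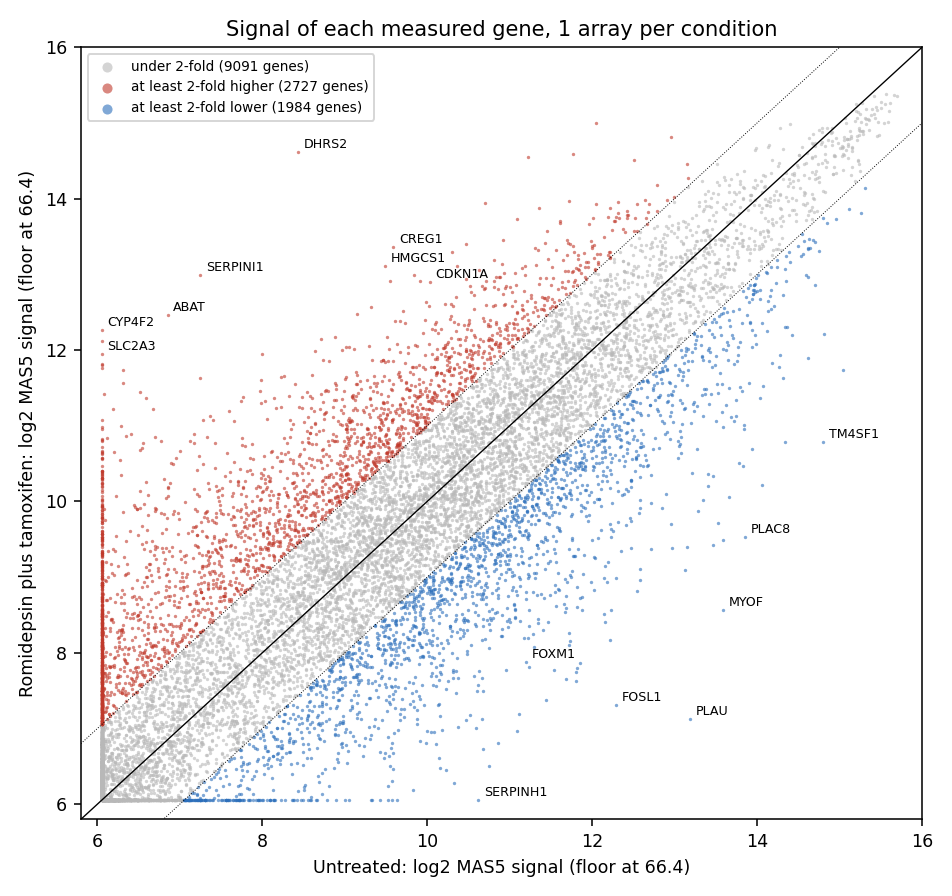
Signals of the 13802 measured genes on the untreated array (horizontal) and the romidepsin plus tamoxifen array (vertical), as log2 of the MAS5 signal with the floor at 66.4, 1 array each. Dotted lines mark 2-fold. The red points on the left edge are genes below the floor in untreated cells, and PLAU, MYOF and FOSL1 lie farthest below the diagonal among genes above the floor on both arrays.

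The steepest rises among genes above the floor on both arrays were in metabolic enzymes, a protease inhibitor and genes known from nerve cells. DHRS2, a short-chain dehydrogenase, gave 346.5 in untreated cells, 23549 with romidepsin, 504.2 with tamoxifen and 25122 with both, a 72.5-fold rise. SERPINI1, which encodes the neuronal protease inhibitor neuroserpin, gave 151.9, 2477, 367.1 and 8163 in the same order, a 53.7-fold rise. ABAT, the enzyme that breaks down the transmitter GABA, rose 49-fold to 5660. For DHRS2 and ABAT the romidepsin array lay near the combination array, whereas SERPINI1 was over 3 times higher with both drugs than with romidepsin alone. DNER, a Notch ligand of neurons, rose 42.8-fold to 3408. PRKAR2B, which regulates protein kinase A, rose 40.4-fold to 2743 from a signal just over the floor. The orphan receptor GPR160 rose 38.1-fold, and GATM, the first enzyme of creatine synthesis, 32.7-fold.

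Further down the same ranking stood enzymes, transporters and signalling genes, each of them higher on the romidepsin array too. KIF5C, a kinesin motor of neurons, rose 30.4-fold from 91.9 to 2797, and DNAH12, a dynein heavy chain of cilia, rose 26.3-fold from 78.1 to 2053. MAN1A1, a mannosidase that trims N-glycans in the Golgi, rose 27.4-fold. ARG2, the mitochondrial arginase, gave 69.5 in untreated cells, 1212 with romidepsin and 1834 with both, and was below the floor with tamoxifen. MAP2K6, the kinase that activates p38, and BAMBI, a decoy receptor of TGF-beta, had the same pattern and rose 23-fold and 22.3-fold. SLC17A7, a vesicular glutamate transporter, rose 23.5-fold, and the cyclin gene CCND2 rose 21.8-fold to 1611. The remaining genes of the 20 largest rises were PAIP2B (20.9-fold), PPM1E (19.4-fold), IL1RAP (18.6-fold), LIPG (18-fold) and CRYM (18-fold).

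Genes that were below the floor in untreated cells and bright with both drugs include a lipid hydroxylase, a glucose transporter and stress-response genes. CYP4F2, a cytochrome P450 that hydroxylates long-chain lipids, gave 1787 with romidepsin and 4941 with both. It was below the floor in untreated and tamoxifen-treated cells, so that it rose at least 74.4-fold. Its only probe set is named _x_at, so the gene has no value when such probe sets are left out. Whether that probe set also reads related genes was not tested. SESN3, a sestrin that restrains mTORC1, rose at least 66.9-fold to 4439, and all 6 of its measured probe sets were higher. SLC2A3, which encodes the high-affinity glucose transporter GLUT3, rose at least 59.4-fold to 3944, against 1883 with romidepsin alone. SELENOP, the plasma carrier of selenium, rose at least 52.3-fold to 3474. ENPP5 (at least 54.5-fold), CEP192P1 (at least 53.9-fold), ZCCHC12 (at least 32.5-fold) and NLRP5 (at least 30.5-fold) complete the 8 largest of this kind. In 6 of the 8 the combination array stood above the romidepsin array, and in ZCCHC12 and NLRP5 it stood near or below it.

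The steepest falls were in genes of invasion, membrane traffic and cell division. PLAU, which encodes urokinase, the protease that activates plasminogen at the cell surface, gave 9337 in untreated cells, 295.9 with romidepsin, 8626 with tamoxifen and 139.4 with both, a 67-fold fall. MYOF, a ferlin of membrane repair, gave 12350, 661.5, 11141 and 380.0, a 32.5-fold fall. FOSL1, the AP-1 subunit FRA1, fell 31.6-fold from 5010 to 158.4. In these 3 genes the tamoxifen array stood near the untreated one or below it, and the array with both drugs was the lowest of the 4. PLAC8 fell 19.9-fold from 14802 to 742.1, with 2679 on the romidepsin array. RIN2, an exchange factor of RAB5, fell 19-fold, and NUPR1, a stress-induced chromatin protein, fell 18.2-fold from 3581 to 197.1 although it gave 7102 with tamoxifen alone. The other falls of this ranking outside cell division were MALL (17-fold), PHF19, a subunit of the Polycomb complex PRC2 (16.6-fold), the semaphorin receptor NRP1 (16.5-fold), EMP1 (16.5-fold), the netrin NTN4 (16.4-fold), the keratin KRT80 (16.4-fold), the hyaluronan synthase HAS3 (16.2-fold), TM4SF1 (16.2-fold), HOXB6 (15.9-fold) and ARSJ (15.5-fold).

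Only 121 of the 1984 falls ended at the floor. The largest was SERPINH1, the collagen chaperone HSP47 of the endoplasmic reticulum, which gave 1576 in untreated cells, 203.3 with romidepsin and 1109 with tamoxifen and was below the floor with both, a fall of at least 23.7-fold. PRRX2, a homeobox factor of mesenchyme, fell at least 12-fold from 797.1, and PRMT7, an arginine methyltransferase, at least 9.71-fold from 644.2. ANK1 fell at least 11.4-fold, ASB4 at least 11.1-fold, DHRSX at least 10.4-fold, DRC8 at least 9.65-fold and RHOH at least 7.99-fold. All 8 were above the floor on both single-drug arrays except ASB4, which was below it with romidepsin.

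**Figure D2:**
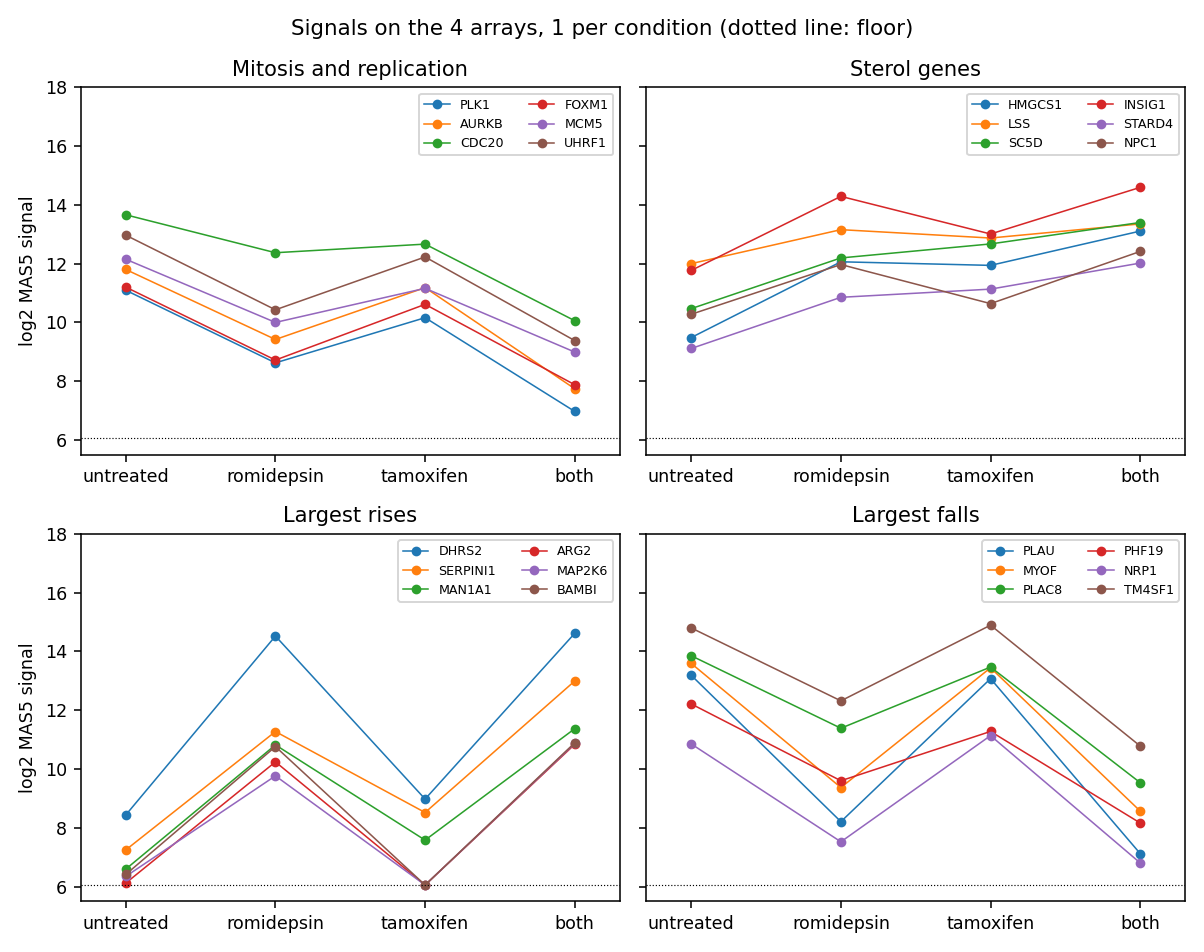
log2 MAS5 signal of 24 genes on the 4 arrays, 1 array per condition, with "both" standing for romidepsin plus tamoxifen and the dotted line for the floor; lines join the arrays of 1 gene and show no time course. The mitosis and replication genes are lowest with both drugs, the sterol genes are highest with both, and NPC1 and BAMBI are among genes whose tamoxifen array stays near or under the untreated array.

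Mitosis held the lowest medians of all groups described. Of 15 kinases and cyclins that take cells into mitosis 13 fell and none rose, with a median log2 fold of -2.48. PLK1, the polo-like kinase of centrosomes and spindle, gave 2186 in untreated cells, 394.5 with romidepsin, 1145 with tamoxifen and 125.5 with both, a 17.4-fold fall. AURKB, the kinase of the chromosomal passenger complex, gave 3569, 684.9, 2326 and 214.3, a 16.7-fold fall. AURKA, the centrosome kinase, fell 7.64-fold from 7391 to 967.2. For each of them the single-drug arrays lay between the untreated and the combination array. The cyclins CCNA2, CCNB1 and CCNB2 fell 6.41-fold, 6.36-fold and 5.52-fold. WEE1 and PKMYT1, the kinases that hold CDK1 inactive, fell 6.4-fold and 6.35-fold, and CDC25B and CDC25C, the phosphatases that release it, 5.09-fold and 5.58-fold. CDK1 itself fell 2.58-fold from 5150 to 1996.

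The machinery that checks chromosome attachment and starts anaphase fell in 12 of 16 genes and rose in none, with a median of -2.11. UBE2C, the E2 enzyme of the anaphase-promoting complex, gave 11328, 1778, 6624 and 685.8 on the untreated, romidepsin, tamoxifen and combination arrays, a 16.5-fold fall. CDC20, the activator of that complex, fell 12.2-fold from 12955 to 1066, and ESPL1, the separase that cuts cohesin, fell 10.7-fold from 2412 to 224.8. BIRC5, which encodes survivin, fell 10.1-fold, CDCA8, its partner in the passenger complex, 6.68-fold, and the checkpoint kinase BUB1B 6.58-fold. TTK, the checkpoint kinase MPS1, was not called and gave 1137 and 911.5. Of the 7 regulators that transcribe the mitotic genes or bind their promoters, FOXM1 fell 9.99-fold from 2353 to 235.5, with 421.5 under romidepsin and 1568 under tamoxifen. MYBL2, the B-MYB subunit of the complex that FOXM1 joins, fell 8.58-fold, and LIN54, the DNA-binding subunit of that complex, rose 2.15-fold from 82.6 to 177.5.

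The structures of the dividing cell followed, and no measured gene of the list rose. Of 20 motors and spindle genes 17 fell, of 17 kinetochore genes 9, and of 13 condensin and cytokinesis genes 8, with medians of -1.78, -1.61 and -1.36. TACC3, which binds spindle microtubules, fell 11-fold from 3360 to 306.0. KIF2C, the kinesin that trims microtubules at kinetochores, fell 10.1-fold, KIF20A, the kinesin of cytokinesis, 9.87-fold, and the spindle assembly factor TPX2 5.41-fold. HJURP, the chaperone of the centromere histone, fell 7.65-fold and that histone, CENPA, 5.16-fold. NCAPH, a condensin subunit, gave 2782, 504.0, 1835 and 166.8, a 16.7-fold fall. TOP2A, which untangles sister DNA, fell 3.88-fold, MKI67, the proliferation antigen, 5.01-fold, and PRC1, which bundles the midzone, 7.14-fold. CENPE, a kinetochore motor, was not called, with 649.5 and 548.8.

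DNA replication fell in 33 of 49 measured genes and rose in none. The licensing factors and the replicative helicase had the lowest median, -2.08, with 12 of 17 lower. MCM5, a helicase subunit, gave 4541 in untreated cells, 1024 with romidepsin, 2288 with tamoxifen and 509.0 with both, an 8.92-fold fall. CDT1, which loads the helicase, fell 8.58-fold from 1553 to 181.0, and MCM7 fell 6.53-fold from 3411 to 522.5. All 6 subunits MCM2 to MCM7 fell, by between 2.19-fold and 8.92-fold. Of the polymerases and the clamp 6 of 14 fell, with POLA2 of the primase complex at 5.36-fold and the flap nuclease FEN1 at 3.67-fold. PCNA, the sliding clamp, was not called and gave 10433 and 7649.

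The supply of nucleotides and the packing of new DNA fell in 9 of 10 genes, with a median of -1.56. UHRF1, which hands methylation to the new strand, gave 8008 in untreated cells, 1379 with romidepsin, 4794 with tamoxifen and 666.8 with both, a 12-fold fall. TYMS, thymidylate synthase, fell 9.83-fold from 33696 to 3428, and RRM2, the small subunit of ribonucleotide reductase, 5.29-fold from 13763 to 2601. The chromatin assembly genes CHAF1A, CHAF1B and ASF1B fell 3.15-fold, 2.4-fold and 2.83-fold. Of the E2F factors, which switch on replication genes, E2F1 fell 3.27-fold from 746.0 to 228.2 and E2F2 3.63-fold, whereas the cyclins CCNE1 and CCNE2 were not called, at 873.4 and 1005 and at 353.6 and 667.7.

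**Figure D3:**
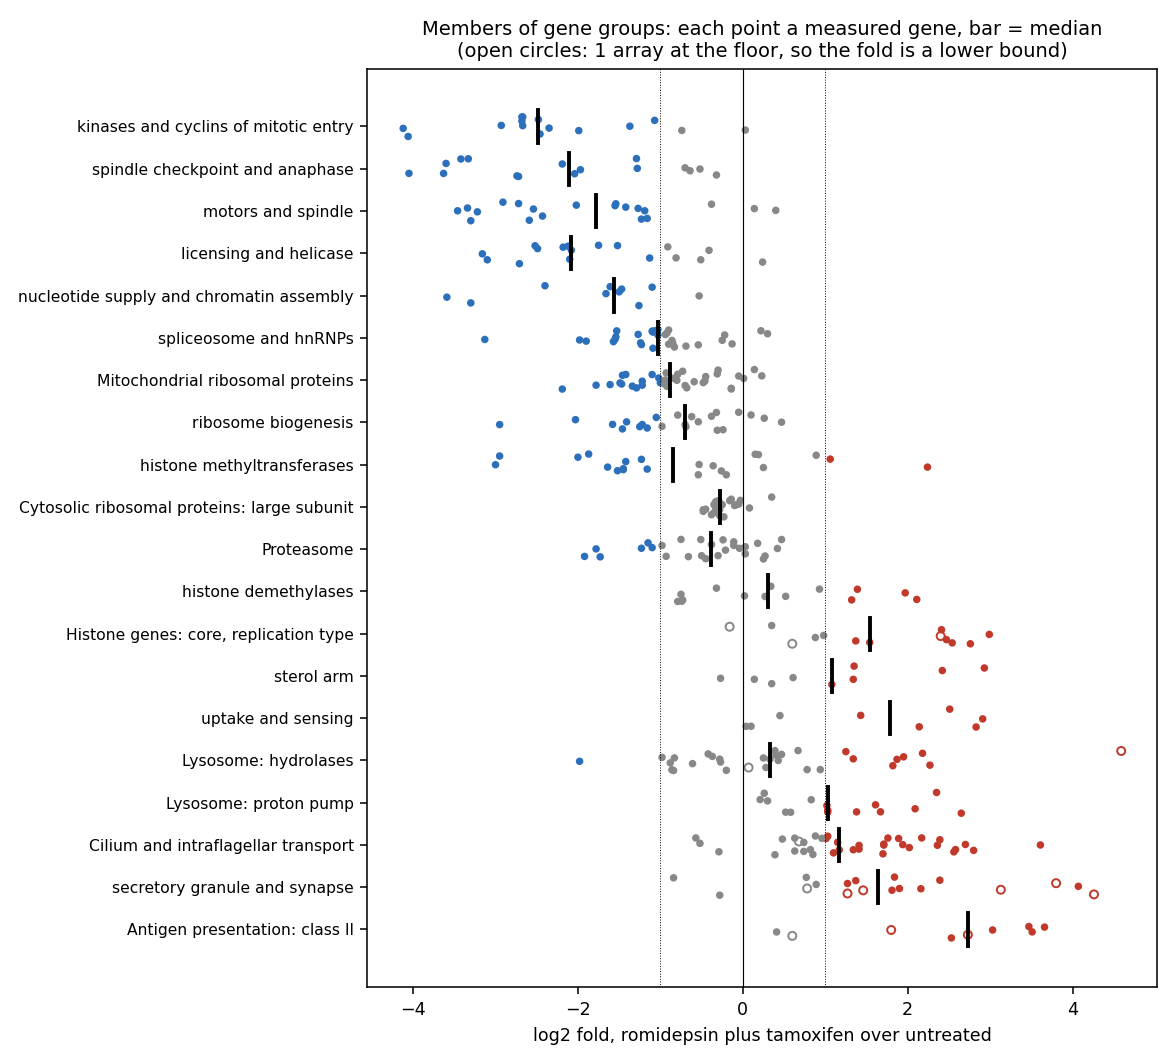
log2 fold of romidepsin plus tamoxifen over untreated for each measured gene of 20 groups, 1 array per condition; black bars are group medians, dotted lines mark 2-fold, and open circles are genes with 1 array at the floor. Groups of mitosis, replication and splicing lie left of 0, and cilium, secretory, proton pump and class II genes lie right of 0. The large-subunit ribosomal proteins hold within 2-fold, with a median of -0.28. That median is 0.01 under quantile normalization or spike-in scaling and -0.58 with arrays centred on their medians.

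The promoter letters were then set beside these folds for every list member with a window of 300 bases, 250 before and 50 after its first listed start. A CHR was present in 11.2% of measured genes with a window and 16.6% of all 27305 windows. It was present in 25 of 31 spindle, kinetochore and cytokinesis genes that fell and in 13 of 22 mitotic regulators that fell, but in 4 of 30 replication genes that fell. The E2F motif had the reverse pattern, with 18 of 30 replication genes that fell, 3 of 31 spindle genes and 1 of 22 mitotic regulators, against 5.13% of measured genes. Of the 53 mitosis genes that fell and had a window, 38 held a CHR, 40 a CCAAT box and 32 both, and 4.71% of measured genes held both. Members of the same lists that were not called held these letters too, with a CHR in 9 of 15 spindle genes and an E2F motif in 5 of 13 replication genes. The letters thus occurred in members that fell and in members that did not pass, and the difference between them was not tested.

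The positions of the matches were also counted. Of 48 CHR matches in the mitosis genes that fell, 34 (70.8%) began between -60 and 30 relative to the start, and the median position was -26.5. Over all measured genes 23.3% of 1389 CHR matches began in that stretch. Members of the same lists that were not called had matches inside that stretch and outside it, such as KIF18A at -10 and SMC4 at -75. Whether the positions differed between members that fell and members not called was not tested. The CCAAT box itself was common, in 36.4% of measured genes and in 10 of 13 cholesterol genes that rose. The sterol regulatory element, searched as TCACNCCAC on both strands, was in 1.08% of measured genes and in 0 of 13 cholesterol genes that rose. A match is a run of letters and no measured binding site, and only the first listed start of each gene was searched.

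**Figure D4:**
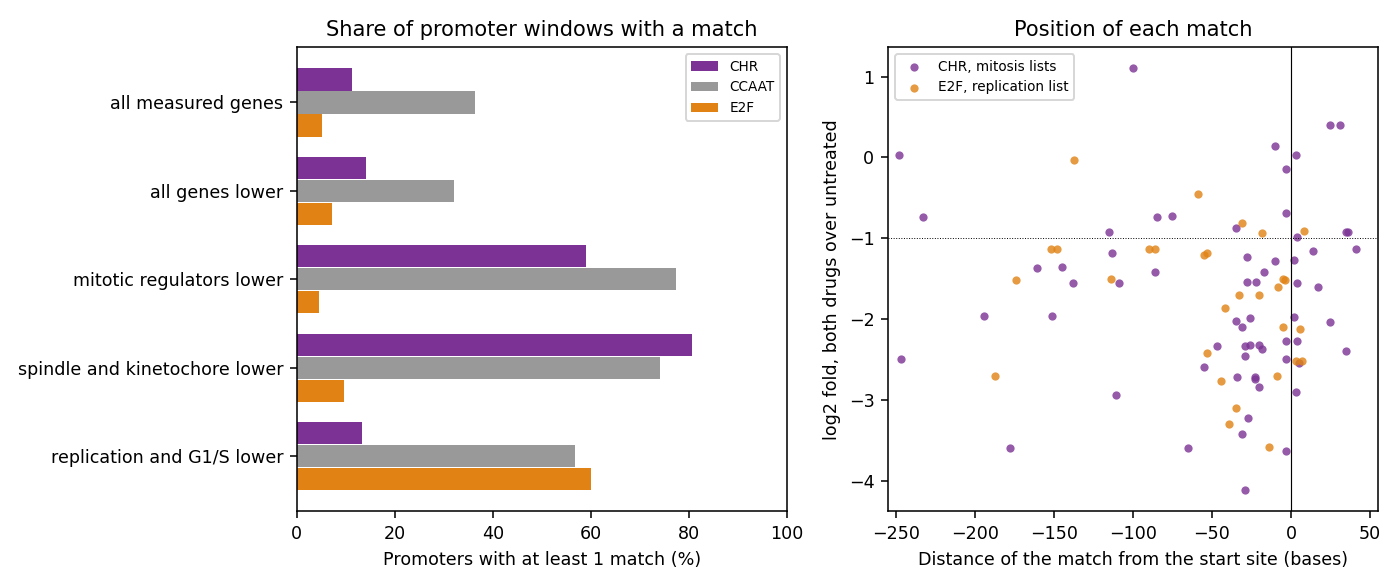
Left, percent of promoter windows with at least 1 CHR, CCAAT or E2F match, for all measured genes, all genes that fell, and members that fell of the lists of mitosis and replication; bars start at 0. Right, distance in bases of each match from the start site against the log2 fold of its gene, with the dotted line at a 2-fold fall; CHR matches in the mitosis lists gather just before the start, at a median position of -26.5 among genes that fell.

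The inhibitors of cyclin-dependent kinases moved both ways. CDKN1A, which encodes p21, gave 1047 in untreated cells, 7755 with romidepsin, 1138 with tamoxifen and 7644 with both, a 7.3-fold rise, with close signals on both arrays that had romidepsin. CDKN1C, the inhibitor p57, gave 718.0, 3642, 1598 and 3662, a 5.1-fold rise, and CDKN2D rose 3.2-fold. CDKN1B, the inhibitor p27, fell 2.97-fold from 2350 to 790.5. CDKN2A was below the floor on 3 arrays and gave 75.6 with both drugs, and it was not called. The D cyclins, which drive cells out of G1, moved apart: CCND1 fell 3.7-fold from 6299 to 1701, while CCND2 and CCND3 rose 21.8-fold and 2.28-fold. Their partner CDK4 fell 2.59-fold, and the retinoblastoma gene RB1 rose 2.22-fold from 484.6 to 1077.

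MYC, the transcription factor that feeds ribosome building and metabolism, gave 5208 in untreated cells, 1668 with romidepsin, 4042 with tamoxifen and 648.3 with both, an 8.03-fold fall. Its antagonist MXD1 rose 6.34-fold from 237.6 to 1505, and MAX, the partner of both, rose 2.26-fold. Ribosome biogenesis genes fell in 9 of 23 and rose in none, with a median of -0.70. GRWD1, a histone and ribosome assembly factor, fell 7.75-fold from 2604 to 336.1, UBTF, which transcribes ribosomal RNA genes, 4.08-fold, and RRP9 2.99-fold. The proteins of the cytosolic ribosome were not called in any of 43 genes. Their median log2 fold of -0.29 became 0.01 under quantile normalization and -0.58 with arrays centred on their medians. The proteins of the mitochondrial ribosome, in contrast, fell in 14 of 36 genes and rose in none, with a median of -0.88. MRPL9 fell 4.55-fold from 5669 to 1247 and MRPL11 3.42-fold from 5137 to 1501. Of 32 measured subunits of the respiratory chain 2 rose and 4 fell.

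Among genes that process and export RNA falls outnumbered rises, and most members were not called. Of 30 spliceosome and hnRNP genes 16 fell and none rose, with a median of -1.03. U2AF2, which recognises the 3′ splice site, fell 8.74-fold from 11327 to 1296, SF3B3 3.95-fold, and HNRNPL 3.74-fold. The SR proteins, which define exons, and their kinases fell in 4 of 17 and rose in 2. SRSF4 fell 4.15-fold and SRSF3 2.4-fold, while the kinases CLK1 and CLK4 rose 2.35-fold and 2.22-fold. Of 27 nuclear pore and transport genes 11 fell and 2 rose, with a median of -0.71. RCC1, which charges RAN with GTP, fell 6.32-fold from 2996 to 474.3, RANBP1 fell 5.93-fold, and RAN itself 2.34-fold. The 2 that rose, RANBP2 and TPR, sit on the outer and inner face of the pore and rose 3.42-fold and 2.48-fold. Proteasome subunits fell in 6 of 27 and rose in none, led by the catalytic subunits PSMB5 (3.79-fold) and PSMB6 (3.44-fold).

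DNA repair genes fell in 15 of 42 and rose in 1. RAD54L, a motor protein of homologous recombination, fell at least 5.69-fold from 377.5 to below the floor, and FANCG of the Fanconi complex fell 3.74-fold. BRCA1 fell 2.54-fold from 745.0 to 293.5. Of the replication checkpoint TIMELESS fell 4.22-fold, CLSPN 3.21-fold and CHEK1 2.76-fold. UNG, which removes uracil from DNA, fell 4.84-fold. LIG4, the ligase of end joining, was the exception and rose 4.87-fold from 303.3 to 1477.

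The messages of the class I deacetylases HDAC1, HDAC2 and HDAC3, which romidepsin inhibits, were not called. HDAC1 gave 12525 in untreated cells, 14306 with romidepsin, 10462 with tamoxifen and 11633 with both. HDAC2 gave 8965, 10051, 11317 and 9881, and its probe sets differed in sign. HDAC3 gave 1685, 3645, 1113 and 3156, which is 1.87-fold and under the 2-fold needed. Of 18 deacetylases 3 rose and 1 fell, and their median of 0.13 turned negative when arrays were centred on their medians. HDAC7 fell 3.58-fold from 414.4 to 115.8 and HDAC5 rose 2.26-fold from 204.8 to 463.3. Acetyltransferases fell in 4 of 10, among them KAT2A (3.2-fold) and KAT5 (2.74-fold), and MTA2, a subunit of the NuRD complex that carries HDAC1 and HDAC2, fell 5.67-fold from 386.7 to 68.2.

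Histone genes did not follow replication. The core histone genes of the replication type, whose messages normally accompany DNA synthesis, rose in 8 of 13 and fell in none, with a median of 1.54, and 5 more of the 18 with a probe set were below the floor on both arrays. H2BC21 rose 7.96-fold from 144.6 to 1151, H2BC5 6.76-fold from 626.3 to 4233, and H4C8 5.81-fold. Members of this family are near copies of each other, so that a probe set can read more than 1 of them. Their messages are known mostly to lack a poly(A) tail. Histone variants went the other way, with 3 of 7 lower and none higher, namely MACROH2A2, which fell at least 6.65-fold, H2AX, which fell 3.81-fold, and H2AZ1, which fell 2.08-fold.

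Histone methyltransferases were lower more often than higher. Of 22 methyltransferases 11 fell and 2 rose, with a median of -0.85. Of 14 demethylases 4 rose and none fell, with a median of 0.30. The demethylase median became 0.01 with arrays centred on their medians and 0.59 under spike-in scaling. SUV39H1, which sets H3K9 methylation in heterochromatin, fell 7.98-fold from 1630 to 204.1, and NSD2, an H3K36 enzyme, fell 7.73-fold from 3620 to 468.2. The arginine methyltransferases CARM1, PRMT1 and PRMT5 fell 4.01-fold, 3.66-fold and 2.73-fold. KMT2C, an H3K4 enzyme of enhancers, rose 4.74-fold from 412.1 to 1952, and EZH2, the catalytic subunit of PRC2, was not called, with 1074 and 899.4. Among the demethylases KDM1B rose 4.33-fold, KDM7A 3.93-fold and KDM5A 2.5-fold. DNMT1, which copies DNA methylation, fell 3.42-fold from 3887 to 1138, and DNMT3A fell 2.84-fold.

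The sterol genes rose in 15 of 30 measured members and fell in 1, with a median of 0.99, and for several of them the combination array was the highest of the 4. HMGCS1, which makes the HMG-CoA of the mevalonate path, gave 716.7 in untreated cells, 4277 with romidepsin, 3931 with tamoxifen and 8822 with both, a 12.3-fold rise. SC5D, the sterol desaturase just after EBP, gave 1417, 4684, 6517 and 10803, a 7.62-fold rise. MSMO1, a demethylase of the sterol ring, gave 6404, 12343, 19726 and 16180, a 2.53-fold rise. Both single-drug arrays stood above the untreated array for these genes, and MSMO1 was highest with tamoxifen alone while HMGCS1 and SC5D were highest with both drugs. TM7SF2, a sterol reductase, rose 5.36-fold, the cyclase LSS 2.55-fold, and the epoxidase SQLE 2.11-fold. EBP, the sterol isomerase that tamoxifen binds, was not called, with 6915 and 7612, and its probe sets differed in sign.

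Sensing and transport of sterols rose in 5 of 8 genes and fell in none, with a median of 1.78. INSIG1, the anchor that holds the sterol sensor SCAP in the endoplasmic reticulum, gave 3490, 20005, 8239 and 24732 on the untreated, romidepsin, tamoxifen and combination arrays, a 7.09-fold rise. Its paralog INSIG2 rose 5.71-fold. STARD4, a sterol carrier, gave 553.7, 1851, 2245 and 4150, a 7.5-fold rise. NPC1, which lets cholesterol out of the lysosome, rose 4.4-fold from 1241 to 5459, and its partner NPC2 2.7-fold. The transcription factors of the path were not called, with SREBF1 at 1928 and 2628 and SREBF2 at 753.3 and 807.7. Of the genes of sterol export ABCG1 rose 4.57-fold, and NR1H3, which encodes the oxysterol receptor LXR-alpha, fell 4.69-fold.

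Fatty acid genes moved in both directions. ELOVL7, a chain elongase, rose 7.47-fold, GPAM, the first enzyme of triglyceride synthesis, 5.28-fold from 434.8 to 2294, and FASN, fatty acid synthase, 2.67-fold from 5118 to 13685. The lipid droplet coat PLIN3 fell 4.65-fold. ACADVL, an enzyme of oxidation in mitochondria, fell 2.7-fold, and ETFDH, which passes the electrons of oxidation on, rose 3.27-fold. Of 36 genes in all, 8 rose and 5 fell, shares of the same order as the background.

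Lysosomal genes rose in 22 of 58 and fell in 2. The proton pump that acidifies the lysosome was the part with the most rises, 9 of 15 subunits with a median of 1.03, and the hydrolases had 8 of 31 with a median of 0.33, which is 0.06 with arrays centred on their medians. ATP6V1D, a subunit of the pump's stalk, rose 6.27-fold from 2174 to 13635, ATP6V1C1 5.08-fold from 1305 to 6634, and ATP6V1A, a catalytic subunit, 4.24-fold. NEU1, the sialidase of lysosomes, was below the floor in untreated cells and gave 1600 with both drugs, at least 24.1-fold. The ceramidase ASAH1 rose 4.81-fold from 1273 to 6120, the acid sphingomyelinase SMPD1 3.66-fold, and the acid lipase LIPA 2.54-fold. Membrane proteins of the lysosome rose in 5 of 12, with GPNMB at 9.95-fold, the calcium channel MCOLN1 at 2.99-fold and LAMP2 at 2.65-fold, while LAMP1 was not called, at 8599 and 9735. CREG1, a glycoprotein of lysosomes that is not in the list, rose 13.7-fold from 769.5 to 10574 and is named here after its value was seen.

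Autophagy genes rose in 11 of 35 and fell in 1. RB1CC1, the scaffold FIP200 that starts the autophagosome, rose 6.51-fold from 818.1 to 5323, and ATG4A, a protease that primes LC3 proteins, 5.45-fold from 796.3 to 4344. The LC3 family members MAP1LC3A, GABARAPL1 and MAP1LC3B, which coat the autophagosome, rose 4.41-fold, 3.85-fold and 2.6-fold. ULK1, the kinase upstream of them, was not called, with 484.8 and 489.4. The transcription factors TFEB and MITF, which are known to drive lysosomal genes, were not called either, TFEB at 357.3 and 249.8 and MITF at 3714 and 2071.

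Stress genes moved in both directions within each branch. Of 14 factors of the integrated stress response 2 rose and 3 fell. DDIT3, the factor CHOP, rose 4.63-fold from 633.4 to 2930 and ATF4 was not called, at 11957 and 8078. ATF5 fell 9.08-fold from 1632 to 179.8 and TRIB3 3.22-fold. Genes of amino acid supply fell in 6 of 16 and rose in 2, with ASNS, asparagine synthetase, 2.16-fold higher and the transporter subunit SLC3A2 2.88-fold lower. Of 20 chaperones and factors of the endoplasmic reticulum 3 rose and 1 fell, a called share below the background. HSP90B1 rose 2.71-fold and SEL1L, which sends proteins out for degradation, 4.77-fold, whereas XBP1, the factor of the unfolded protein response, fell 3.29-fold. HSPA5, the main chaperone there, was not called, at 13006 and 13319. Of 17 chaperones and factors of the cytosol and mitochondria 5 fell and 1 rose. The small heat shock protein HSPB1 fell 6.32-fold from 13547 to 2143 and HSF1, which transcribes heat shock genes, 2.86-fold.

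Of 22 genes of glucose uptake and glycolysis 3 rose and 4 fell, with a median of -0.41. Besides SLC2A3, the brain aldolase ALDOC rose 12.8-fold from 139.0 to 1783, while PFKP, a phosphofructokinase, fell 4.1-fold and GPI 3-fold. Of 17 genes of the hypoxia response 7 rose and 1 fell, with a median of 0.83. EPAS1, which encodes HIF-2-alpha, rose 8.09-fold from 519.2 to 4202, EGLN3, the oxygen sensor that it induces, at least 4.76-fold, and PDK1 2.81-fold. The one that fell was ADM, which encodes the peptide adrenomedullin, 3.63-fold from 12055 to 3323. HIF1A was not called, with 4946 and 6845.

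Several receptors of growth factors were lower. EGFR fell 3.25-fold from 4784 to 1470, ERBB2 3.39-fold from 1066 to 314.4, and MET, the receptor of hepatocyte growth factor, 3.17-fold from 2955 to 933.4. AXL fell 6.42-fold, and the ligands EREG and NRG1 fell 9.2-fold and 4.73-fold. The ligand TGFA rose at least 7.17-fold to 475.6. Of the 14 receptors and ligands measured 6 fell and 2 rose.

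The factors at the end of this path also diverged. Beside the fall of FOSL1, FOS was below the floor in untreated cells and rose at least 13.3-fold to 884.0, and the immediate early gene EGR1 gave 255.8, 3713, 466.2 and 3965 on the untreated, romidepsin, tamoxifen and combination arrays, a 15.5-fold rise. JUN was not called, at 5675 and 3738. ETS factors fell in 5 of 12 and rose in none, with ETS2 at 13.5-fold from 4570 to 338.9 and ETS1 at 3-fold, while their median of -0.10 turned to 0.11 under spike-in scaling. DUSP6, the phosphatase that turns ERK off, rose 8.92-fold, and PHLDA1 and SPRY2, further feedback genes of ERK, fell 7.09-fold and 3.2-fold.

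Of 13 genes of plasminogen activation and coagulation 6 fell and 3 rose, with a median of -0.66. With PLAU, its receptor PLAUR fell 2.64-fold and S100A10, the plasminogen receptor subunit, 6.05-fold from 28740 to 4754. TFPI, the inhibitor of tissue factor, fell 15.1-fold from 2207 to 146.2, and tissue factor itself, F3, rose at least 5.46-fold to 362.2. SERPINE2, an inhibitor of urokinase and thrombin, rose 9.98-fold from 568.9 to 5677. Of the S100 proteins, small calcium-binding proteins, 5 of 9 fell and none rose, with a median of -1.42, among them S100A3 (5.43-fold), S100A2 (4.35-fold) and S100A11 (3.6-fold). Of 8 annexins 1 fell. Of 19 matrix proteases and their inhibitors 4 rose and 1 fell, a called share below the background.

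Genes of adhesion sites and YAP targets fell in 9 of 19 and rose in 2, with a median of -0.72. PXN, paxillin, fell 6.39-fold from 3449 to 539.5, the caveolins CAV1 and CAV2 4.06-fold and 4.09-fold, and the coactivator YAP1 3.49-fold. The 2 that rose were the known YAP targets ANKRD1, at least 19.2-fold, and CCN2, 7.77-fold. Of 13 integrins 3 fell and 2 rose, a called share near the background. ITGA3, ITGB5 and ITGA5 fell 4.94-fold, 3.84-fold and 3.11-fold. ITGB8 rose at least 7.06-fold, and ITGA7 rose 5.14-fold. Matrix proteins rose in 8 of 19 and fell in 3, but 3 of the 8 rises came from below the floor. Only 14 of the 19 were above the floor in untreated cells, and the others could not be called lower. Those 14 held 5 rises against 3 falls. Their middle log2 fold was -0.24, while that of all 19 was 0.47. FN1, fibronectin, rose at least 17.5-fold to 1164, with 1094 on the romidepsin array.

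Neither epithelial nor mesenchymal markers moved as a block. CDH1, the epithelial cadherin, gave 222.6 in untreated cells, 1027 with romidepsin, 452.0 with tamoxifen and 873.7 with both, a 3.93-fold rise. Of 17 genes of epithelial junctions 4 rose and 4 fell, and of 10 mesenchymal genes and regulators 3 rose and 2 fell. EPCAM rose at least 7.15-fold and the desmosome protein DSP at least 27.2-fold to 1804, but the tight junction gene CLDN4 fell 9.15-fold and the desmosome gene PKP3 7.1-fold. The mesenchymal factors SNAI1 and SNAI2 rose, the first at least 4.79-fold and the other 3.15-fold. ZEB1 was not called, at 954.0 and 785.2, nor was the mesenchymal cadherin CDH2, at 1356 and 1395. Keratins fell in 4 of 5, with KRT7 at 3.86-fold.

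Receptors and ligands of developmental paths moved one by one. Of 20 TGF-beta genes 3 rose and 4 fell. SMAD3 fell 9.51-fold from 4637 to 487.5 and INHBB 8.82-fold, while TGFBR3 rose 5.05-fold. SMAD4 was not called, at 711.2 and 678.9. Of 27 WNT genes 10 rose and 6 fell, and 5 of the 10 rises came from below the floor. Over the 20 above the floor on both arrays 5 rose and 5 fell, with a median of -0.07. The ligands WNT4 and WNT5A rose at least 7.03-fold and at least 4.92-fold. WNT5B and WNT7B fell, the first at least 7.15-fold and the second 5.39-fold. LRP6 rose 5-fold and its sister coreceptor LRP5 fell 4.15-fold. Of the Notch genes 5 of 21 rose and none fell, and 2 of the 5 rises came from below the floor. HEY2 was at least 11.5-fold and the receptor NOTCH3 at least 3.79-fold higher. Of 18 genes of IGF and insulin signalling 6 rose and 4 fell, among them the adaptors, with IRS2 2.67-fold higher and IRS1 2.64-fold lower.

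Genes of nerve and secretory cells were among those that came up. Of 18 secretory granule and synapse genes above the floor on at least 1 array 13 rose and none fell, with a median of 1.64, and 5 of the 13 were below the floor in untreated cells. Another 6 of the 24 with a probe set were below the floor on both arrays, so that these counts leave out the members that stayed silent. SCG2, a granin of secretory granules, rose at least 19.1-fold to 1270. SYT11, a synaptotagmin, gave 77.9 in untreated cells, 1185 with romidepsin, 95.2 with tamoxifen and 1307 with both, a 16.8-fold rise. SYN1, a synapsin of synaptic vesicles, rose at least 14-fold to 927.3, and CPE, which trims peptide hormones, at least 8.74-fold. Of 18 measured genes of the neuronal cytoskeleton and adhesion 10 rose and 3 fell, and another 13 were below the floor on both arrays. The adhesion molecule NRXN2 rose at least 11.5-fold and NCAM1 10.2-fold, while STMN3, a stathmin that destabilises microtubules, fell 2.9-fold and NES, the intermediate filament nestin, 2.7-fold. REST, the repressor of neuronal genes, was not called, at 529.3 and 924.7, and its probe sets differed in sign.

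Cilium genes rose in 23 of 37 and fell in none, with a median of 1.17, and 36 of the 37 were above the floor on both arrays. WDR19, a subunit of the intraflagellar transport complex A, rose 12.2-fold from 218.5 to 2671. DYNC2H1, the dynein that carries that complex back, rose 6.96-fold from 109.9 to 765.1, and KIF3A, the kinesin that carries it out, 6.5-fold from 438.4 to 2849. Complex B followed with IFT57 (5.97-fold), IFT80 (5.26-fold) and IFT88 (3.7-fold). BBS10 and BBS12, chaperones of the Bardet-Biedl complex, rose 5.92-fold and 5.15-fold, and CEP290 of the transition zone 4.49-fold.

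Genes normally silent outside the germ line gave a smaller set, 8 of 12 measured higher and none lower, with 16 of 28 below the floor on both arrays. Of the 8 that rose, 4 came from below the floor. Only 7 of the 12 measured were above the floor in untreated cells, and 4 of these 7 rose. The other measured members could not be called lower. ESX1, a homeobox gene of testis and placenta, rose 14.1-fold from 67.9 to 959.1, with 1530 under romidepsin alone. SSX1 rose at least 10.7-fold to 711.5 and PAGE1 at least 7.79-fold to 517.0.

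The genes of class II antigen presentation rose in 7 of 9 and fell in none, with a median of 2.73. Only 6 of the 9 were above the floor in untreated cells, and 2 of the 7 rises came from below it. Another 2 of the 11 with a probe set were below the floor on both arrays. Members below the floor or within 2-fold of it in untreated cells could not be called lower. HLA-DPA1, HLA-DRB1 and HLA-DMB rose 12.7-fold, 11.4-fold and 11.1-fold, to 1221, 995.2 and 970.3. HLA-DRA, the invariant partner of the DR chain, rose at least 3.49-fold but reached only 231.8. CIITA, the master regulator of these genes, was below the floor in untreated cells, gave 100.5 with both drugs and was not called, and CD74, the invariant chain, was below the floor on all 4 arrays. Class I genes had no common direction, with 4 of 19 higher and 5 lower and a median of 0.28 that becomes -0.01 when arrays are centred on their medians. The stress ligands MICA and ULBP2, read by natural killer cells, rose 10.7-fold and 10.7-fold, and the immunoproteasome subunits PSMB8 and PSMB10 fell 3.22-fold and 5.82-fold.

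Innate immune genes changed singly. The DNA sensor CGAS fell 5.48-fold from 599.7 to 109.5, and of the interferon-stimulated effectors 4 of 26 rose and 5 fell, with HERC5 9.35-fold higher and IFI35 and IFITM3 6.09-fold and 4.7-fold lower. Of 29 cytokine, chemokine and NF-kappaB genes 7 rose and 5 fell. IL15 rose at least 11.7-fold to 778.4 and CXCL8 at least 5.24-fold to 348.0, while LIF fell 9.88-fold from 1100 to 111.3. ICAM1, an adhesion molecule for leukocytes that is in none of the lists, rose 13.6-fold from 165.6 to 2246 and is named here after its value was seen.

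Apoptosis genes moved in both directions. Of 10 anti-apoptotic genes 3 fell and none rose: BCL2A1 fell 13.6-fold from 1197 to 87.8, CFLAR, the inhibitor of caspase-8, 5.47-fold, and BCL2L1, which encodes BCL-XL, 3.85-fold from 3435 to 892.3. MCL1 was not called, at 6953 and 7793. Of 12 BH3-only proteins and effectors, which oppose them, 3 rose and 2 fell. BIK rose at least 7.59-fold to 503.5, BMF at least 4.53-fold to 300.6, and BCL2L11, which encodes BIM, 3.29-fold from 515.6 to 1698. BID fell 6.55-fold and BOK 3.42-fold, and the effector BAX was not called, at 588.9 and 311.4. Of 19 death receptors, caspases and their partners 5 fell and 3 rose, with a median of -0.14 that turned to 0.15 under spike-in scaling. The receptors TNFRSF1A and TNFRSF10A fell 6.43-fold and 4.75-fold, and the decoy receptor TNFRSF10D rose 2.92-fold.

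Genes of growth arrest were listed in 2 groups. Of 12 genes of the damage response 4 rose and 2 fell, with a median of 0.02. TP53INP1, a stress gene of autophagy, rose at least 23.9-fold to 1587, and SESN1, a sestrin like SESN3, 3.81-fold, while PHLDA3, an inhibitor of the kinase AKT, fell 2.47-fold. Of 18 genes of FOXO factors, GADD45 proteins and quiescence 8 rose and 2 fell, with a median of 0.80. The arrestins ARRDC4 and TXNIP, which limit glucose uptake, rose at least 14.8-fold to 983.9 and 11.1-fold from 252.0 to 2804. FOXO4, a factor of quiescence, rose at least 3.52-fold, and KLF6, a zinc finger factor, fell 3.67-fold.

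Receptors for estrogen were dim on these arrays. ESR1 was below the floor in untreated and tamoxifen-treated cells and gave 121.5 with romidepsin and 196.5 with both, at least 2.96-fold higher, but another of its probe sets differed the other way. ESR2 lay between 80.8 and 85.0 on the 3 other arrays, was below the floor with both drugs, and was not called.

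Genes that handle drugs and oxidants included some of the largest rises. ABCB1, the efflux pump P-glycoprotein, of which romidepsin is a known substrate, was below the floor in untreated and tamoxifen-treated cells, gave 342.9 with romidepsin and 569.1 with both, and rose at least 8.58-fold. Of 14 ABC transporters 5 rose and 2 fell. ABCC3 and ABCC1, pumps of conjugated compounds, fell 8.53-fold from 1055 to 123.7 and 2.96-fold from 10989 to 3716. ABCG2 was not called, at 963.2 and 607.1. Besides CYP4F2, CYP1A1, the P450 induced by aryl hydrocarbons, gave 438.6 with romidepsin, 153.5 with tamoxifen and 737.2 with both from below the floor, at least 11.1-fold, and the acetyltransferase NAT1 rose 12.7-fold from 128.3 to 1632. Of 15 P450 and partner genes measured 8 rose and none fell, 5 of the 8 from below the floor, and another 8 with a probe set stayed below it on both arrays. Only 7 of the 15 were above the floor in untreated cells, and the others could not be called lower. Of these 7 genes 3 rose, with a median of 0.67 over the 7. KEAP1, which holds NRF2 in check, fell 8.73-fold from 3259 to 373.5, and of 16 genes of the NRF2 group 4 rose and 2 fell, with NQO1 3.79-fold lower and AKR1C3 at least 9.63-fold higher. SLC40A1, the iron exporter ferroportin, rose at least 14.2-fold to 943.3.

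Families defined only by their symbols were counted after values had been seen, and nothing rests on their choice. Of 21 measured HOX genes, which specify position along the body, 14 fell and 1 rose, with a median of -1.52. HOXB genes fell in 7 of 9 and HOXC genes in 7 of 8, while none of 4 HOXD genes was called. HOXB6 gave 3703 in untreated cells, 581.6 with romidepsin, 2539 with tamoxifen and 232.9 with both, a 15.9-fold fall. HOXC6 gave 6141, 867.1, 4982 and 499.7, a 12.3-fold fall, and HOXB5 fell 10.2-fold from 1326 to 129.8. HOXB13, at the end of its cluster, was the exception and rose 3.16-fold from 103.1 to 325.6. Genes with a ZNF symbol, most of them zinc finger repressors, rose in 88 of 333 and fell in 37, and DEAD box helicases, which unwind RNA, fell in 11 of 31 and rose in none.

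Probe sets of a gene did not always agree in size. Another measured probe set had a log2 fold under 0.5 in size for CCND2 (0.14), KIF5C (0.43), EMP1 (-0.07) and HOXB6 (-0.08) among the largest changes. The same held for the list members AURKA (-0.46), POLA2 (-0.31), BRCA1 (-0.21), CLSPN (-0.21), RANBP1 (-0.02), TPR (0.08), MAX (0.34), HDAC5 (0.0), NPC1 (0.08), ABCG1 (0.03), IFT57 (0.14), ATF5 (-0.2), PFKP (-0.34), ETS2 (-0.21), TFPI (-0.49), CAV2 (-0.41), ITGB8 (0.17), CFLAR (-0.21), BCL2L11 (0.22) and TNFRSF10D (0.24). Further genes of the largest changes had a measured probe set at 0.5 or more in size that still fell short of 2-fold. These were MYOF (-0.56), AURKB (-0.53), SESN3 (0.75), SELENOP (0.69), ANK1 (-0.78), ASB4 (-0.97) and DHRSX (-0.53). Among genes that were not called, HDAC2, EBP, SREBF2, HSPA5, LAMP1, MCL1, REST and ESR2 had probe sets that differed in sign.

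Called genes also differed by gene length and chromosome, a breakdown likewise made after values had been seen. Among the 13788 measured genes with a length, the median was 43.9 kb for genes that rose, 23.1 kb for genes that fell and 28.4 kb for all. With genes split into 5 equal classes by length, in the shortest class, up to 8.58 kb, 14.5% rose and 15.7% fell, and in the longest, above 89.3 kb, 27.5% rose and 11.2% fell. Restricted to genes above the floor on both arrays the shares were 12.7% and 18.9% in the shortest class and 24.9% and 12.8% in the longest. By chromosome the share that rose ran from 9.15% on chromosome 22, where 22.0% fell, to 31.4% on chromosome 4, where 9.11% fell. Chromosome 13, with 28.7% higher and 9.28% lower, resembled chromosome 4, and chromosomes 16, 17, 19 and 20 resembled 22 in having more falls than rises. These breakdowns describe the same 2 arrays, and whether length and chromosome act apart from each other was not tested.

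**Figure D5:**
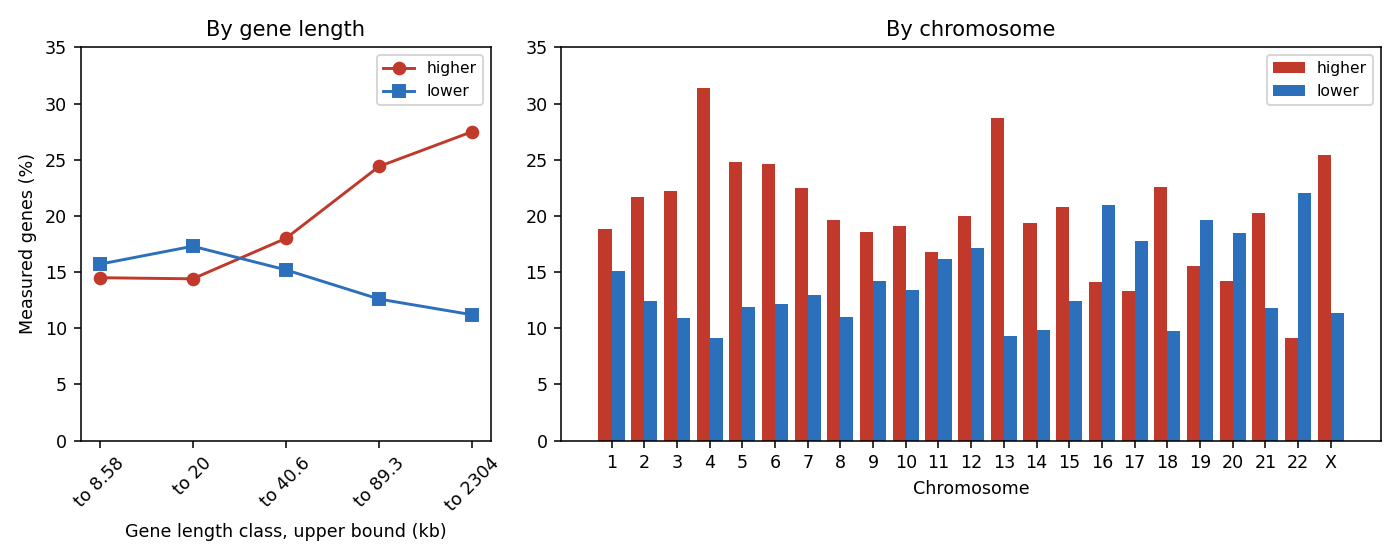
Percent of measured genes at least 2-fold higher (red) or lower (blue) with romidepsin plus tamoxifen, by class of gene length (left, 5 equal classes, upper bound in kb) and by chromosome (right, bars from 0). The share that rose goes from 14.5% in the shortest class to 27.5% in the longest, and chromosomes 4 and 13 have the highest shares that rose.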

How the data were processed

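Gene expression was measured on Affymetrix arrays in untreated Panc1 cells and in cells given romidepsin, tamoxifen or both, with 1 array per condition, grouped by the labels. The authors deposited 1 linear intensity per probe set, computed by MAS5 according to the submitters' processing notes, and the MAS5 version is not given in the sources used here. For each probe set MAS5 compares perfect-match with mismatch probes, and it scales each array alone. Labelled cRNA came from 100 ng of total RNA and a 3′ kit, per the labels' protocols. Scanner files are not used here, and background correction, slide and scan date were left as they were.

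Signals under the median of all signals other than controls (66.4) were set to that floor, log2 was taken, and the arrays were compared as deposited. The brightest probe set by mean log2 signal stood for a gene, and a call needed a 2-fold difference. With 1 array per group no test was made, and the only measured spread was technical, since the number of arrays limits the precision. The spread between 2 probe sets of a gene was 0.33 and the SD over 18 spike-in probe sets 0.1, both on the log2 scale.

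Genes named are the 20 largest rises and 20 largest falls above the floor on both arrays, the 8 largest each way with the lower array at the floor, up to 10 members of each role of a list with the largest differences, members without a call that are central to their list, and a short set that is always reported. Measured probe sets of a named gene had to agree in direction, except in the set always reported and among members without a call. Further list members were named for their known function after their values were seen. The members and all 45 lists were chosen with earlier results of these data known. Of 1774 list genes 161 had no probe set of their own and were not analysed here. Names, gene lengths, chromosomes and promoters came from RefSeq tables of GRCh38.p14, and Entrez IDs matched 41043 probe sets and changed 0 symbols. For promoters 11153 of the measured genes matched, and the first listed start was used for each.

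Calculations used Python 3.11.15, numpy 2.4.6 and pandas 2.3.3, figures matplotlib 3.10.9, and the steps were tested on simulated data. Alternatives were other floors, 3 other scalings, other probe set choices, a 3-fold call and genes above the floor on both arrays.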

Additional observations from a re-analysis of the deposited data

Results flagged for a closer look

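Probe sets whose annotation names no gene were not part of any comparison above. Of 11721 such probe sets 3564 were measured, of which 544 were at least 2-fold higher with both drugs and 214 at least 2-fold lower. These are 15.3% and 6.0%, against 18.9% and 13.1% of the 25787 measured probe sets with a single gene. Their targets were not named here.

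The actin control probe sets, which are not used for any gene, had a ratio of 3′ to 5′ signal of 1.73 on the combination array against 1.21 on the untreated, 1.18 on the romidepsin and 1.39 on the tamoxifen array. The ratio of the GAPDH controls lay between 1.03 and 1.07 on the 4 arrays. The ribosomal 18S controls gave 28238 and 12022 for the 3′ probe set and 43188 and 31622 for the 5′ probe set on the untreated and combination arrays. The part of these differences in the gene results was not tested.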

How the results depend on the processing

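Rises were 57.9% of calls as reported. Their share was 60.4% with the floor at the 25th percentile of signals and 50.8% with it at the 75th percentile. It was 41.2% with arrays centred on their medians, 51.7% with quantile normalization and 72.8% with arrays scaled to the spike-ins. It was 61.9% without probe sets named _s_at or _x_at, 61.6% at 3-fold and 52.8% over genes above the floor on both arrays. With the floor at the 75th percentile 1423 genes rose, and at 3-fold 1374 rose and 858 fell. The median log2 fold of the DNA replication list was -1.17 with the floor at the 75th percentile, against -1.51. These choices change the set of genes or the zero of the scale by construction.

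Of 358 list medians recomputed over the 45 lists, 338 were counted as unchanged, 20 as moved and 0 as reversed. Small medians could still change sign under another scaling. That of glycolysis and hypoxia went from 0.07 to -0.23 with arrays centred on their medians. The median of the apoptosis list went from -0.15 to 0.14 under spike-in scaling. Of 425 recomputed folds of named genes 339 were close to the reported value, 86 moved and 0 were reversed. Called genes whose log2 fold took the opposite sign, whether or not still called, numbered 5 when the median over probe sets stood for a gene and 46 without _s_at and _x_at probe sets, and 0 under the other alternatives, and of these 1 and 4 were called in the opposite direction. No paired analysis was possible because there is 1 array per condition.

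Signals near the floor limit the falls that can be seen, since a gene within 2-fold of the floor in untreated cells cannot be called lower. No spread between cultures was measured.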
